A study of Mus musculus with 2 samples.

Results

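Lymphatic endothelial cells line the vessels that carry fluid, antigen and immune cells out of a tissue. Here they were found in single-cell RNA libraries of lung, made in droplets with 10x Genomics reagents, and made up 78 of 18031 cells kept after filtering, and 78 of the 20218 cell barcodes in the 2 libraries. A cell was chosen by its own measured counts. It needed at least 200 genes, at most 20% mitochondrial UMIs (unique molecular identifiers, which count captured transcripts), no UMI of the leukocyte gene Ptprc, at least 2 UMIs of Mmrn1, Prox1 and Reln together, and at least 1 UMI of Ccl21. The 24 HIR members came from 1 wild-type lung library from the group with hepatic ischemia-reperfusion (HIR), where blood flow to the liver is stopped and then restored, at 6 hours. The 54 sham members came from 1 wild-type lung library after sham surgery. Both lungs were digested with collagenase, elastase and DNase and freed of red cells before loading. The labels name the mouse and primary lung cells, while all 32883 features of the files carry rat gene identifiers, and age, sex, strain and the number of animals per library are not given. As each group was 1 library, nothing here could be tested over replicates. Every interval below covers counting error only, within these libraries.

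The lymphatic fate is set by the transcription factor PROX1 and kept by VEGF-C signalling through the receptor VEGFR-3 (Flt4) and its partner neuropilin-2 (Nrp2). Initial lymphatics carry the hyaluronan receptor LYVE1 and release the chemokine CCL21, which draws dendritic cells and T cells bearing CCR7 into the vessel. Multimerin-1 (Mmrn1) is a secreted matrix glycoprotein, and reelin (Reln) is a secreted glycoprotein best known from brain development that lymphatic endothelium also makes. In the lung, lymphatics clear fluid from around airways and vessels.

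By the counts the rule itself used, most members lay well inside it. Of the 24 HIR members, 23 had more than 5 UMIs of the 3 lineage genes and 1 had exactly 2, and of the 54 sham members 49 had more than 5, 3 had 3 to 5 and 2 had exactly 2. Just outside it, 2 HIR and 2 sham cells had 1 lineage UMI with Ccl21, and 2 HIR and 2 sham cells had at least 2 lineage UMIs without Ccl21. Ccl21 without any lineage gene was found in 175 HIR and 200 sham cells free of Ptprc, with a median of 1 UMI in both. A further 8 HIR and 2 sham barcodes met every part of the rule except Ptprc. Members held 85.8% of all Ccl21 UMIs of kept HIR cells and 96.5% of those of kept sham cells, and 84.1% of HIR and 95.2% of sham Mmrn1 UMIs.

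**Figure D1:**
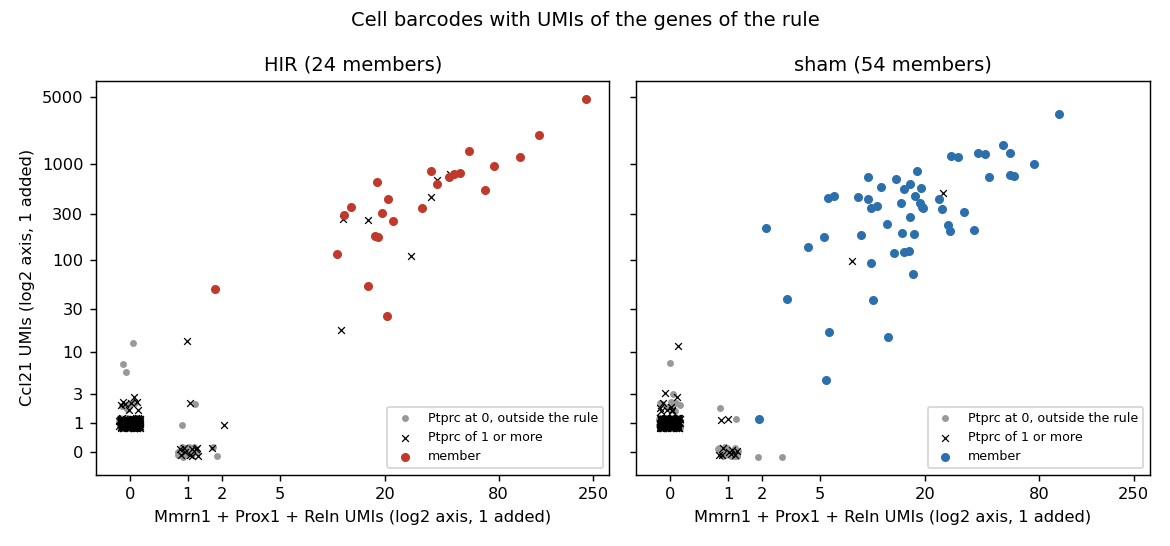
UMIs of Mmrn1, Prox1 and Reln together (horizontal, log2 axis with 1 added) against Ccl21 UMIs (vertical, same scale) for kept barcodes with any of them, with small random shifts so that equal counts can be seen. Coloured points are the 24 HIR (left) and 54 sham (right) members, grey points lie outside the rule with Ptprc at 0, and crosses carry Ptprc; most members have far more UMIs than the barcodes outside the rule, and a few lie at its edge.

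HIR members held 220506 UMIs, with a median of 5176 per cell, and sham members 439456 UMIs, with a median of 5746. A single HIR cell of 57639 UMIs supplied 26.1% of all HIR member UMIs, so HIR values are also given without it. The libraries shared 24 cell barcodes, none of them a member's. Members were often among the cells with the highest doublet scores (Scrublet, which compares each cell with simulated pairs). Of the HIR members 17 of 24 were, against 668 of 8593 kept HIR cells, and of the sham members 14 of 54 were, against 864 of 9438. Their part in the results was not tested, so values without them are given where they matter. The 7 HIR members left then hold 20400 UMIs and the 40 sham members 321682. Of these, 2 of the 17 high-scoring HIR members and 4 of the 14 high-scoring sham members carried another cell type's markers at 5 UMIs and 2500 CPM (counts per 1000000 UMIs). Over all members it was 3 HIR and 5 sham cells. Markers of general capillary, venous, large vessel and arterial endothelium were not counted, so a pair with such a cell could not be seen in this way. A sham cell held 274681 CPM of hemoglobin genes, 1 sham cell 3399.6 CPM of cell cycle markers, and 1 sham cell had no UMI of the endothelial genes Cdh5 and Cldn5. That last cell met the rule by 2 UMIs of Reln and 1 of Ccl21, and had none of Mmrn1, Prox1, Flt4 or Lyve1. It had 6 UMIs of the fibroblast gene Col1a1, so its values go against the label. It also sets the lowest sham values of Ccl21 and Mmrn1 given below.

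Lymphatic endothelial cells were a smaller share of the HIR library. They made up 0.279% of kept HIR cells (24 of 8593, exact binomial 95% interval 0.179 to 0.415%) and 0.572% of kept sham cells (54 of 9438, 0.430 to 0.746%), a ratio of 0.488 (0.289 to 0.803). Fewer lymphatic cells in the tissue and fewer released by digestion cannot be told apart. The ratio varied with the rule and the cells counted. It was 0.628 (0.393 to 0.986) when Ptprc was allowed, 0.591 (0.331 to 1.03) when Mmrn1 was left out of the lineage sum, and 0.189 (0.0716 to 0.427) without the high doublet scores. With cells thinned to 1500 UMIs it was 0.681 (0.410 to 1.11), from 28 of 7608 HIR and 46 of 8511 sham cells. Shallower cells were left out there, and the rule was applied after thinning, so cells that lost their Ptprc UMIs could enter. Among lymphatic and blood endothelial cells alone, the members were 2.38% in HIR and 3.69% in sham, a ratio of 0.645 (0.382 to 1.06), with the blood endothelial cells chosen by a rule tightened after values were seen. With the wider rule first set for them it was 0.507 (0.300 to 0.834), an interval that leaves out 1. The kept cells that form the denominator also differed: neutrophil markers summed to 28266 CPM over kept HIR cells and 3690.2 CPM over kept sham cells. With the denominator held to cells without Ptprc, 5463 in HIR and 6379 in sham, the ratio was 0.519 (0.307 to 0.854).

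The genes that chose the members come first, as a description. Ccl21 was the strongest of them, at 81894 CPM in HIR members and 62573 CPM in sham members. Its level ran from 11147 to 136303 CPM with a median of 79177 CPM over HIR cells, and from 125 to 161674 CPM with a median of 54111 CPM over sham cells, so that most of these cells spent several percent of their captured transcripts on this 1 chemokine. Mmrn1 had 4276 CPM in HIR members and 2134 CPM in sham members and ran from 1707 to 10798 CPM with a median of 4374 CPM over HIR cells, and from 0 to 5282 CPM with a median of 2007 CPM over sham cells. The bulk of HIR cells lay above the sham median for Mmrn1 and the ranges overlapped. Reln stood at 467 CPM in HIR and 369 CPM in sham members. Prox1, the fate-setting factor, stood at 249 CPM in HIR and 271 CPM in sham members and left a UMI in 17 of 24 HIR members and 35 of 54 sham members.

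Markers that the rule did not use fitted the label for most genes. Podoplanin (Pdpn), a membrane glycoprotein of lymphatic but not blood endothelium, had 549 CPM in HIR members and 409.6 CPM in sham members, against 5.03 CPM in HIR and 4.60 CPM in sham blood endothelial cells. The transcription factor Tbx1 was at 435 CPM in HIR and 344 CPM in sham members, and Maf, another lymphatic transcription factor, at 195 CPM in HIR and 123 CPM in sham members. Flt4 had 227 CPM in HIR members and 309 CPM in sham members, against 8.38 CPM in HIR and 11.1 CPM in sham blood endothelial cells. The general endothelial genes were present: the junction protein claudin-5 (Cldn5) had 2308 CPM in HIR members and 2073 CPM in sham members and VE-cadherin (Cdh5) 535 CPM in HIR members and 509.7 CPM in sham members. VEGFR-2 (Kdr), the other VEGF-C receptor, had 834 CPM in HIR and 659.9 CPM in sham members. Genes of blood endothelium were mixed, with Vwf and Flt1 near 0 and general capillary and arterial markers present. Von Willebrand factor (Vwf), which blood endothelium stores for clotting, had 0 UMIs in HIR members, which allows up to 13.6 CPM at 3 counts, and 1 UMI in sham members, against 1014 CPM in HIR and 819 CPM in sham blood endothelial cells. VEGFR-1 (Flt1) had 9.07 CPM in HIR and 18.2 CPM in sham members. General capillary markers summed to 834 CPM in HIR and 660 CPM in sham members, against 1097 CPM over kept HIR and 1570.5 CPM over kept sham cells. Arterial markers summed to 431 CPM in HIR and 225 CPM in sham members, against 249.5 CPM over kept HIR and 266 CPM over kept sham cells. Venous and large vessel markers summed to 4.54 CPM in HIR and 2.28 CPM in sham members. Of the 16 lymphatic markers listed, Tff3, Nts and Clca2 had 0 UMIs in both libraries. All 5 mesothelial markers had 0 UMIs in both, and T, NK and B cell markers together stayed under 10 CPM in both. Markers of most other cell types were found at low levels, summed over the members. Erythroid markers differed, at 472 CPM in HIR and 8697 CPM in sham members. The sham cell rich in hemoglobin genes reached 274681 CPM of them, against a median of 541 CPM over sham cells. Alveolar type 1 markers had 580.5 CPM in HIR and 498 CPM in sham members, but that list holds Pdpn, whose own levels are given above. Without Pdpn they had 35.0 CPM in the 17 HIR members with high doublet scores and 0 CPM in the other 7. In sham it was 178 CPM in the 14 members with high doublet scores and 56.0 CPM in the other 40. Alveolar type 2 markers had 381 CPM in HIR and 341 CPM in sham members. Myeloid markers had 331 CPM in HIR and 282 CPM in sham members, and neutrophil markers 268 CPM in HIR and 319 CPM in sham members.

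Seen beside blood endothelial cells, the lymphatic cells had a distinct profile in both libraries. The blood endothelial cells were 984 HIR and 1410 sham cells with at least 3 UMIs of Cdh5 and Cldn5, at least 2 of Cdh5 and none of the lineage genes, Ptprc, Epcam, Ager, Lamp3 or Col1a1. The last 4 conditions and that on Cdh5 alone were added after a wider group was seen to hold alveolar epithelial RNA. That wider group had 2027 HIR and 2284 sham cells. The following is a description, since members and blood cells were chosen on their counts. Among genes outside the rule, Lrg1, a secreted glycoprotein of TGF-beta signalling, stood furthest apart, at 2218 CPM in HIR and 1704 CPM in sham members against 27.4 and 6.52 CPM in HIR and sham blood endothelial cells. The secreted pattern recognition protein pentraxin-3 (Ptx3) had 562 CPM in HIR and 496 CPM in sham members and no UMI in blood endothelial cells of either library. Tbx1, Pdpn, Fgl2, the mannose receptor Mrc1, Ifi27l2b, Nrp2 and Clec3b were also among the genes furthest above blood endothelial cells. Mrc1 had 454 CPM in HIR and 389 CPM in sham members and Clec3b, which encodes the plasminogen-binding protein tetranectin, 299 CPM in HIR and 353 CPM in sham members. On the other side, Epas1, the hypoxia-inducible factor of blood endothelium, had 118 CPM in HIR and 198 CPM in sham members, against 2929.8 and 2919 CPM in HIR and sham blood cells. Tspan7, the nucleoside transporter Slc29a1, Ly6e, Clec14a, the BMP target Id1, the fenestral diaphragm protein Plvap, thrombomodulin (Thbd), the phospholipid transfer protein Pltp and Pxdc1 were the other 9 lowest.

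**Figure D2:**
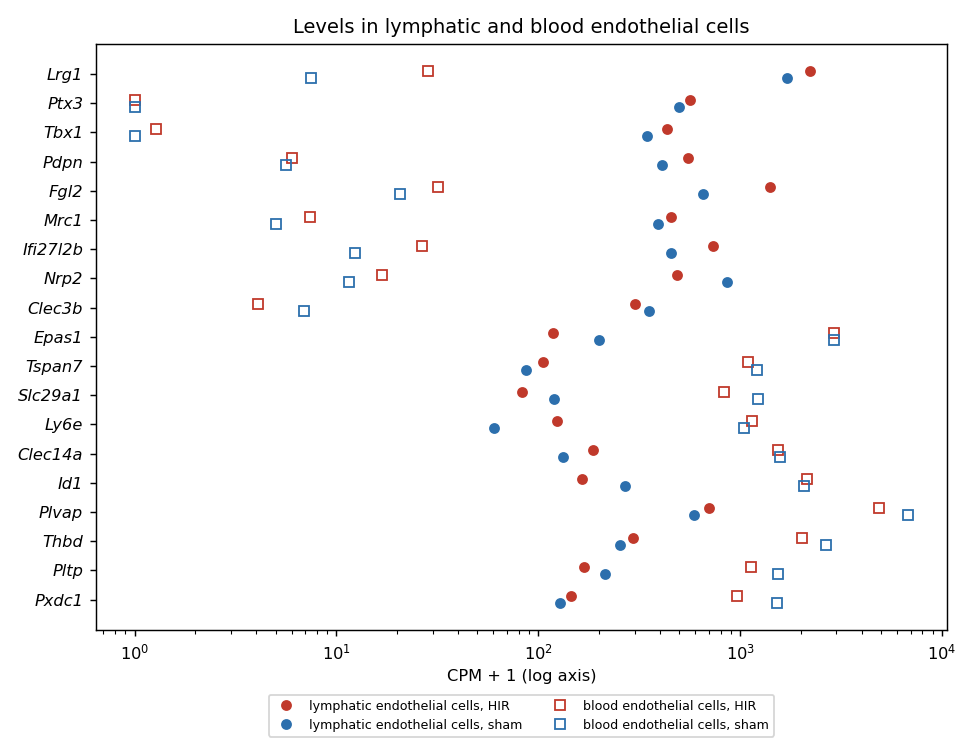
CPM plus 1 (log axis) of genes that stood furthest apart between lymphatic (filled circles) and blood endothelial cells (open squares), with HIR in red and sham in blue. Genes from Lrg1 to Clec3b were higher and genes from Epas1 to Pxdc1 lower in lymphatic cells in both libraries; each point is 1 library.

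Between the libraries, most measured genes of the lymphatic cells lay within 2-fold. Measured genes were the 1685 that reached 100 CPM in 1 of the libraries and 20 UMIs in the sum of both. With 20 CPM added to both values, 41 of them (2.43%) were over 2-fold higher in HIR members and 29 (1.72%) over 2-fold lower. In all, 832 of the 1685 (49.4%) were higher in HIR members, the background for every list below, and the median log2 ratio was 0.00. Leaving out the largest cell of each library gave 53 higher and 37 lower genes, of which 29 and 18 were among the same 41 and 29. Leaving out the high doublet scores gave 166 and 373, of which 13 and 15 were, with only 7 HIR cells left and the median of all measured genes at -0.16.

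Lyve1, the hyaluronan receptor of initial lymphatics, was among the genes most above sham. It had 3583 CPM in HIR members and 783 CPM in sham members, a ratio of 4.58 (95% interval 4.03 to 5.21). Single cells ran from 0 to 8931 CPM with a median of 2252 CPM over HIR cells, and from 0 to 4092 CPM with a median of 272 CPM over sham cells. In all, 3 HIR cells had none and 12 sham cells reached 1000 CPM, so the ranges overlapped, but 18 of 24 HIR cells were at or over 1000 CPM. After thinning to 1500 UMIs, Lyve1 was seen in 19 of 23 HIR cells and 18 of 53 sham cells, against 21 of 24 HIR members and 38 of 54 sham members before, with 1 shallower cell left out in each library. In fibroblasts, a type that should lack it, thinned shares were 0.826% of HIR and 0.561% of sham cells (medians of 3169 and 3250 UMIs). Without the largest cell of each library the log2 ratio was 2.41, against 2.17 with it. Without the high doublet scores it was 0.64, from 20 HIR and 200 sham UMIs, with a ratio of 1.58 (0.943 to 2.50). Lyve1 was not a marker of lymphatic cells alone here, since it had 1698 CPM in HIR and 1043 CPM in sham blood endothelial cells.

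The other identity genes lay on both sides. Of 21 measured genes of the lymphatic identity list, which holds the 4 genes of the rule, 14 were higher in HIR members and 2 passed 2-fold, Lyve1 and Fgl2. Without the rule's 4 genes, 11 of 17 were higher and the list median was 0.21, against 0.00 over all measured genes. Fgl2, a secreted fibrinogen-like protein that dampens T cells, had 1410.4 CPM in HIR members and 658 CPM in sham members, a ratio of 2.14 (1.82 to 2.53), and 11 UMIs in HIR and 197 UMIs in sham members (ratio 0.880, 0.432 to 1.61) without the high doublet scores. Nrp2, the VEGF-C coreceptor, was lower, at 485 CPM in HIR members and 858 CPM in sham members, a ratio of 0.566 (0.452 to 0.703). Single cells ran from 0 to 1799.6 CPM with a median of 430.4 CPM over HIR cells, and from 0 to 4908 CPM with a median of 770.4 CPM over sham cells. Without the high doublet scores it had 8 UMIs in HIR and 319 UMIs in sham members (ratio 0.395, 0.169 to 0.789). Flt4 itself had a ratio of 0.733 (0.519 to 1.02), an interval that holds 1, and 1 UMI in HIR and 116 UMIs in sham members (ratio 0.136, 0.00341 to 0.772) without the high doublet scores. Sox18, a transcription factor upstream of Prox1 in mouse embryos, had 149.7 CPM in HIR and 309 CPM in sham members, and its levels in blood endothelial cells lay in the same order, at 214 CPM in HIR and 443 CPM in sham blood endothelial cells. Pdpn had a ratio of 1.34 (1.06 to 1.70).

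**Figure D3:**
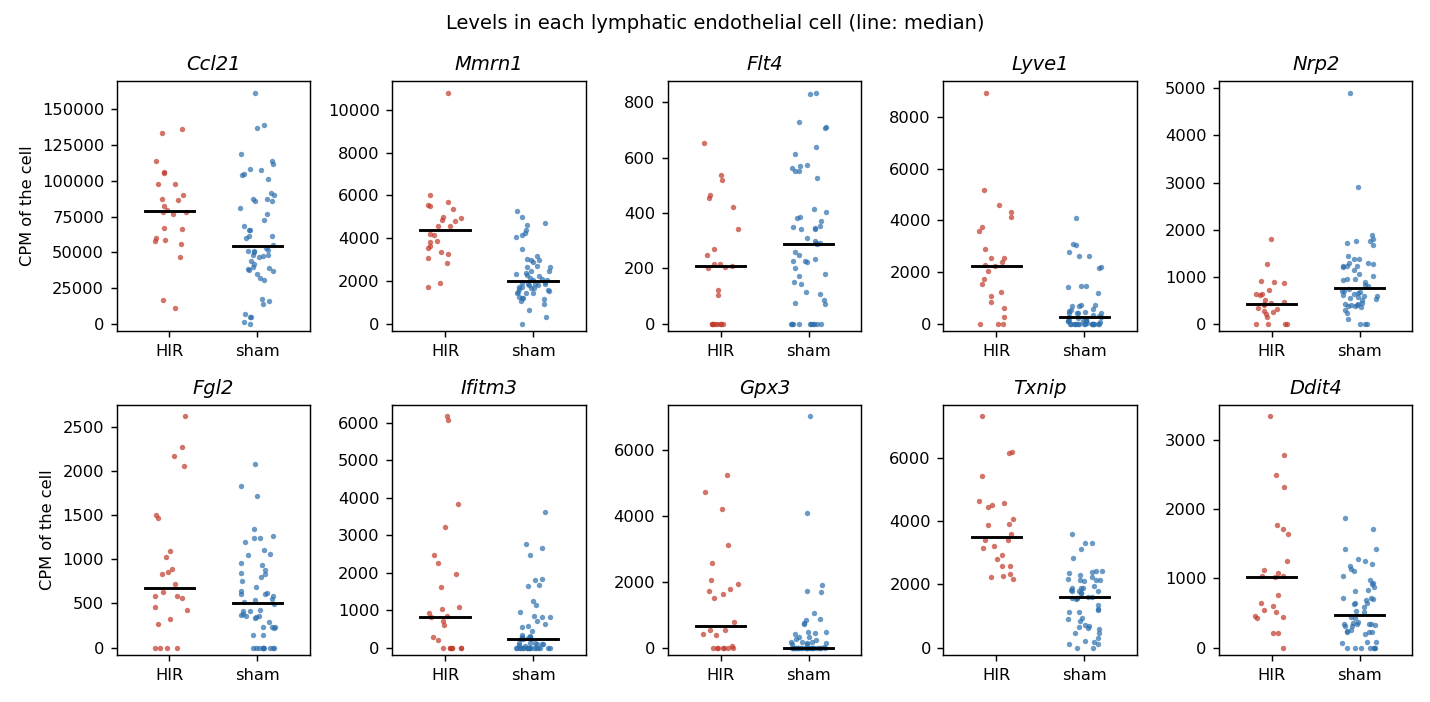
CPM in each of the 24 HIR (red, left) and 54 sham (blue, right) members for 10 genes, with a line at the median over cells. Points are cells of 1 library per group and not replicates. Txnip lay at or above 2176 CPM in every HIR cell, against a sham median of 1592 CPM, while Lyve1, Ifitm3 and Gpx3 spread from 0 upward in both libraries.

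Txnip was higher in HIR members across the whole range of cells. It encodes thioredoxin-interacting protein, which restrains thioredoxin and glucose uptake. It had 3465 CPM in HIR members and 1497 CPM in sham members, a ratio of 2.31 (95% interval 2.08 to 2.57). Single cells ran from 2176 to 7313 CPM with a median of 3500 CPM over HIR cells, and from 0 to 3586 CPM with a median of 1592 CPM over sham cells, so that every HIR cell lay above the sham median. Its log2 ratio was 1.20, and between 1.01 and 1.32 under the 11 alternative settings. In blood endothelial cells Txnip had 1252 CPM in HIR and 959.9 CPM in sham, a log2 ratio of 0.38. In the wider group it was 0.42. The difference between lymphatic and blood log2 ratios was not tested.

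Txnip belonged to a list of glucocorticoid-responsive genes, of which 16 of 17 measured were higher in HIR members, against 832 of all 1685 measured genes. Of these, 5 passed 2-fold and none was over 2-fold lower, with a list median of 0.64 (0.36 without the largest cells). In blood endothelial cells 16 of 16 measured were higher, with a median of 0.52, against a median of -0.05 over all 1747 genes measured there. How many of those 1747 were higher was not counted. Ddit4, a stress-induced inhibitor of mTORC1, had 1129 CPM in HIR members and 548 CPM in sham members, a ratio of 2.06 (1.72 to 2.47). Its log2 ratio of 1.02 was between 0.83 and 1.15 over the settings, and 1.46 in blood endothelial cells. Tsc22d3, which encodes the leucine zipper protein GILZ, had 531 CPM in HIR members and 232 CPM in sham members, a ratio of 2.29 (1.74 to 3.01). Errfi1, a feedback inhibitor of the EGF receptor, had 181 CPM in HIR members and 34.1 CPM in sham members, with a ratio of 5.31 (2.87 to 10.4) and a UMI in 12 of 24 HIR members and 8 of 54 sham members. The metallothionein Mt1 was low, at 104 CPM in HIR and 36.4 CPM in sham members. Nfkbia, the inhibitor of NF-kB that belongs to this list and to the NF-kB list, was just under 2-fold, at 862 CPM in HIR members and 446 CPM in sham members. Other genes of the list had larger ratios in blood endothelial cells, a difference that was not tested. The transcription factor Cebpd had 199.5 CPM in HIR and 150.2 CPM in sham members, with an interval of its ratio of 0.886 to 1.98, against 1236 CPM in HIR and 359 CPM in sham blood endothelial cells. Lcn2, an iron-binding acute-phase protein and the 1 gene of the list that was lower, had 245 CPM in HIR and 328 CPM in sham members, against 65.1 CPM in HIR and 10.9 CPM in sham blood endothelial cells.

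Of the NF-kB list only 5 genes were measured, and 4 were higher in HIR members, none of them over 2-fold. The chemokine gene Cxcl1 had 367 CPM in HIR members and 187 CPM in sham members, but in 8 of 24 HIR members and 19 of 54 sham members. Ccl2, the other chemokine and the 1 gene of the list that was lower, was at 136 CPM in HIR and 150.2 CPM in sham members. The immediate early list had 12 of 14 measured genes higher, against 832 of all 1685, and none over 2-fold, with a median of 0.42 (0.23 without the largest cells). Its AP-1 genes Fos, with 834 CPM in HIR and 856 CPM in sham members, and Jun, with 1369.6 CPM in HIR and 1104 CPM in sham members, were high in both libraries. Without the high doublet scores, Jun had 15 UMIs in HIR and 305 UMIs in sham members (ratio 0.776, 0.429 to 1.30). Fos then had 11 UMIs in HIR and 268 UMIs in sham members (ratio 0.647, 0.319 to 1.18). Other genes whose sign turned without those cells are given in the closing section.

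**Figure D4:**
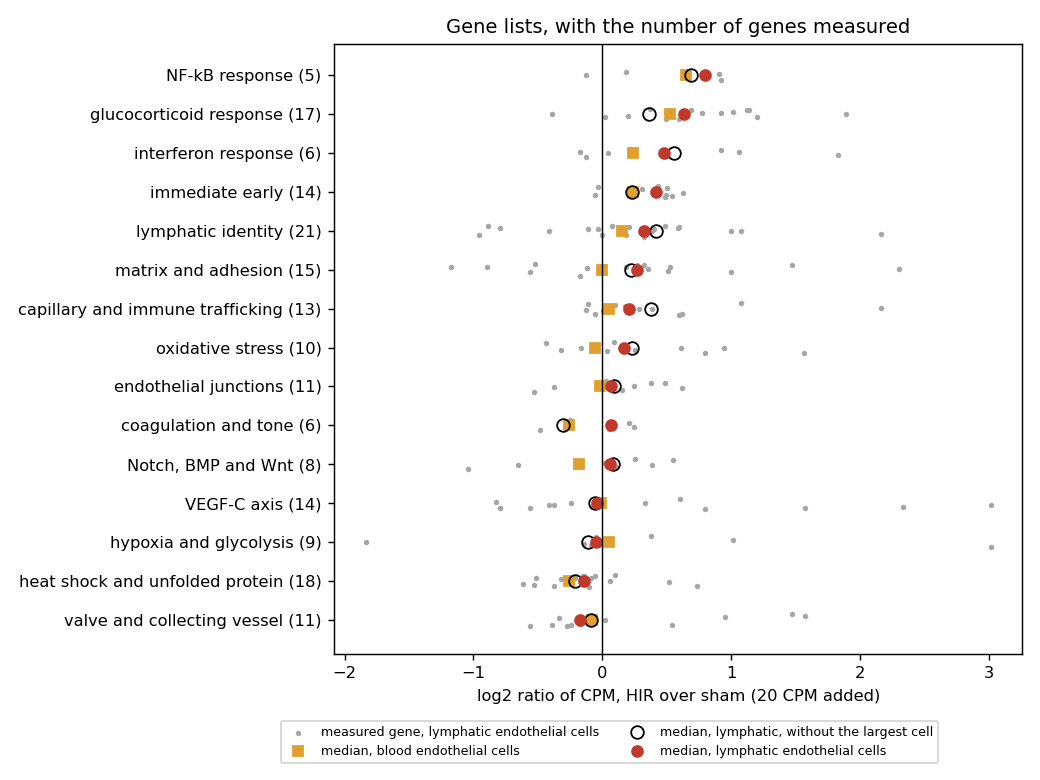
Log2 ratio of CPM, HIR over sham with 20 CPM added, for each list with at least 5 measured genes. Grey points are genes in lymphatic cells, filled circles their median, open circles the median without the largest cell of each library and squares the median in blood endothelial cells; the glucocorticoid median is 0.64 in lymphatic and 0.52 in blood endothelial cells.

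Genes against oxidants and pathogens were split. Gpx3, a secreted glutathione peroxidase, had 1342 CPM in HIR members and 439 CPM in sham members, a ratio of 3.06 (95% interval 2.54 to 3.68). Single cells ran from 0 to 5258 CPM with a median of 656 CPM over HIR cells, and from 0 to 7026 CPM with a median of 0 CPM over sham cells. Fibroblasts held it in 93.0% of HIR and 88.6% of sham cells, and the part of free fibroblast RNA in the lymphatic values was not tested. Blood endothelial cells, which were chosen without Col1a1, a fibroblast gene, had 69.5 CPM in HIR and 32.0 CPM in sham, and the wider group chosen without that condition 291 CPM in HIR and 287 CPM in sham. With high doublet scores left out, Gpx3 had 38 UMIs in HIR and 117 UMIs in sham members (ratio 5.12, 3.45 to 7.44). Of those HIR UMIs 22 were in 1 cell, without which the HIR level was 1017 CPM in place of 1863 CPM. Mgst2, a membrane glutathione transferase, had the largest log2 ratio of the 12 higher genes in the plot of named genes, at 2.41, with 231 CPM in HIR members and 27.3 CPM in sham members and a UMI in 17 of 24 HIR members and 8 of 54 sham members. Its relative Mgst1 had 163 CPM in HIR and 75.1 CPM in sham members. Of 10 measured genes of the oxidative stress list, 7 were higher and 1, Gpx3, passed 2-fold. Ifitm3, an interferon-induced membrane protein that blocks virus entry, had 2132 CPM in HIR members and 585 CPM in sham members, a ratio of 3.64 (95% interval 3.12 to 4.26). It had 19 UMIs in HIR and 121 UMIs in sham members (ratio 2.48, 1.44 to 4.04) without the high doublet scores. Those HIR UMIs lay in 3 of 7 cells, and the deepest of the 7, with 4665 UMIs, stood at 3215 CPM. The median over these cells was 0 CPM in HIR and 104.5 CPM in sham, so the ratio rests largely on 1 HIR cell. Its neighbour in the family, Ifitm2, had 2004 CPM in HIR members and 1047 CPM in sham members, a ratio of 1.92 (1.68 to 2.19), and 13 UMIs in HIR and 342 UMIs in sham members (ratio 0.599, 0.316 to 1.04) without the high doublet scores. Of 6 measured interferon genes 4 were higher and 2, Ifitm3 and Ifit2, passed 2-fold, Ifit2 at 136 CPM in HIR and 54.6 CPM in sham members. Ifi27, also interferon-induced, had 1546 CPM in HIR and 1745 CPM in sham members, and B2m, the light chain of MHC class I, had 2082 CPM in HIR and 2023 CPM in sham members.

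Adrenomedullin acts on lymphatic growth and junctions in mice, and its genes here were picked from the VEGF-C axis list. The peptide gene Adm had 327 CPM in HIR members and 22.8 CPM in sham members, a ratio of 14.3 (95% interval 7.37 to 31.2). That rested on few cells: Adm was found in 5 of 24 HIR members and 8 of 54 sham members, and the largest HIR cell held 44 of the 72 UMIs, without which the log2 ratio was 2.10 in place of 3.02. Adm had 2 UMIs in HIR and 7 UMIs in sham members (ratio 4.51, 0.457 to 23.7) without the high doublet scores. The receptor subunit Ramp3 had 149.7 CPM in HIR and 13.7 CPM in sham members, in 8 of 24 HIR members and 3 of 54 sham members. Without the high doublet scores it had 0 UMIs in HIR and 1 UMI in sham members, too few to give a ratio. Its relative Ramp2 had 4131 CPM in HIR members and 2708 CPM in sham members, a ratio of 1.53 (1.40 to 1.66), and 46 UMIs in HIR and 897 UMIs in sham members (ratio 0.809, 0.588 to 1.09) without those cells. The receptor Calcrl had 236 CPM in HIR members and 432 CPM in sham members, a ratio of 0.545 (0.393 to 0.745), and 4 UMIs in HIR and 144 UMIs in sham members (ratio 0.438, 0.118 to 1.15) without the high doublet scores. Efnb2, a ligand needed for lymphatic valves, had 195 CPM in HIR and 52.3 CPM in sham members, in 7 of 24 HIR members and 16 of 54 sham members. Its log2 ratio ran from 0.47 to 1.81 over the settings. Without the high doublet scores Efnb2 had 2 UMIs in HIR and 17 UMIs in sham members (ratio 1.86, 0.208 to 7.82). Over the VEGF-C axis list, 6 of 14 measured genes were higher, 3 passed 2-fold and the median was -0.04. The valve and collecting vessel list had 5 of 11 higher, with 2 past 2-fold, Efnb2 and fibronectin (Fn1), and a median of -0.17. Fn1 had 118 CPM in HIR and 29.6 CPM in sham members, and its log2 ratio of 1.48 was 0.53 without the largest cells.

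Matrix genes lay on both sides. Fibroblast markers, a possible source of matrix RNA, summed to 327 CPM in HIR members (0 to 4154 CPM per cell) and 107 CPM in sham members (0 to 2757), with a median of 0 in both, and their part was not tested. Mmrn2, an endothelial matrix protein that binds CD93, had 213 CPM in HIR members and 27.3 CPM in sham members, a ratio of 7.81 (4.08 to 16.2), with a UMI in 17 of 24 HIR members and 10 of 54 sham members. Its log2 ratio of 2.30 was 0.29 in blood endothelial cells. Sparc, a collagen-binding matricellular protein, was lower, at 848 CPM in HIR members and 1943 CPM in sham members. It was 2.29-fold lower (1.95 to 2.70). Single cells ran from 0 to 4172 CPM with a median of 1104 CPM over HIR cells, and from 0 to 5812 CPM with a median of 2046 CPM over sham cells. Its log2 ratio of -1.18 was -0.90 without the largest cells. With high doublet scores left out, Sparc had 34 UMIs in HIR and 658 UMIs in sham members (ratio 0.815, 0.559 to 1.15). The basement membrane collagen Col15a1 had 99.8 CPM in HIR members and 278 CPM in sham members, and a log2 ratio of -1.31, against -1.06 in blood endothelial cells. Col18a1, its relative, had 136 CPM in HIR and 271 CPM in sham members, and the collagen chaperone Serpinh1 535 CPM in HIR and 776 CPM in sham members, while the chain Col4a1 had 630.4 CPM in HIR and 432 CPM in sham members. Of 15 measured matrix genes 9 were higher, 2 were over 2-fold higher and 1 over 2-fold lower.

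Of 18 measured genes of the heat shock and unfolded protein list, 4 were higher in HIR members, against 832 of all 1685 measured genes. None passed 2-fold either way, and the median was -0.14, against -0.26 in blood endothelial cells. Hspa8, the constitutive HSP70 chaperone, had 649 CPM in HIR members and 1004 CPM in sham members, a ratio of 0.646 (0.531 to 0.782), and Hsp90ab1 had 1583 CPM in HIR members and 1982 CPM in sham members, a ratio of 0.799 (0.703 to 0.905). The BMP target Id3 had 204 CPM in HIR members and 441 CPM in sham members, a ratio of 0.462 (0.327 to 0.642), and was the 1 of 8 measured Notch, BMP and Wnt genes past 2-fold.

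The remaining named genes were low, and their ratios rested on few UMIs. Lower in HIR members were Ldhb, a lactate dehydrogenase subunit, with 3 UMIs in HIR and 44 in sham members, which was also lower in HIR blood endothelial cells (log2 ratio -1.50), the cell cycle inhibitor Cdk2ap2 (log2 ratio -1.53), the cytochrome oxidase subunit Cox7b (-1.12), the Ran-binding protein Ranbp1 (-1.14) and the focal adhesion protein vinculin (Vcl, -1.12). Tril (-1.34), the semaphorin receptor Plxnd1 (-1.20), Bpgm (-1.17), the transcriptional corepressor Tgif1 (-1.13) and the potassium channel subunit Kcne3 (-1.12) completed the 12. Higher in HIR members were the phospholipase Pla1a (log2 ratio 1.62), the matrix protein Tinagl1 (1.45), Eif2b3 (1.40) and Wbp1l (1.29). Without the high doublet scores, Tinagl1 had 0 UMIs in HIR and 6 in sham members, too few to give a direction. Plxnd1 then had 3 UMIs in HIR and 45 UMIs in sham members (ratio 1.05, 0.209 to 3.27). Ldhb, Vcl, Tgif1 and Kcne3 then had 0 HIR UMIs, and Pla1a, Cdk2ap2, Cox7b, Ranbp1, Tril and Bpgm had 1. The intervals of their ratios held 1.

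**Figure D5:**
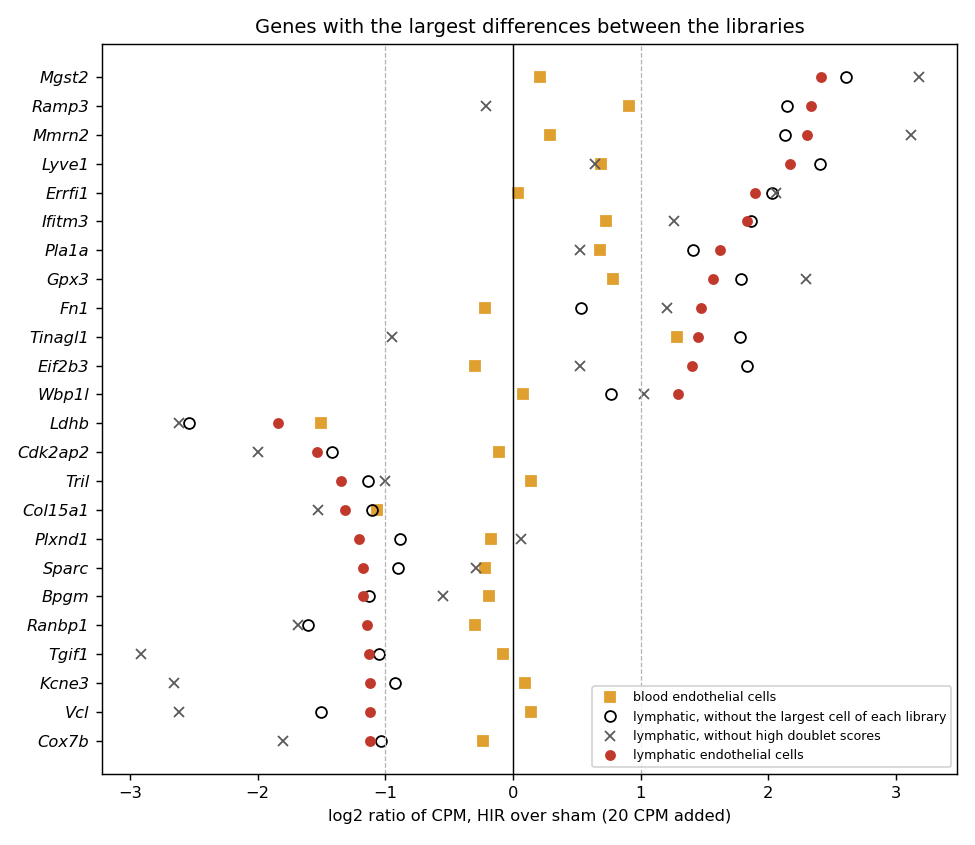
Log2 ratio of CPM, HIR over sham with 20 CPM added, for the 12 named genes furthest above and the 12 furthest below 0. Filled circles are lymphatic endothelial cells, open circles leave out the largest cell of each library, crosses leave out members with high doublet scores and squares are blood endothelial cells; dashed lines mark 2-fold. The crosses of Ramp3, Tinagl1 and Plxnd1 lie across 0 but rest on 0, 0 and 3 HIR UMIs. Those of Ldhb, Tgif1, Kcne3 and Vcl also rest on 0 HIR UMIs. Those of Pla1a, Cdk2ap2, Tril, Bpgm, Ranbp1 and Cox7b rest on 1, and the interval of each of these ratios holds 1.

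Several of these genes also varied with Lyve1 among the cells of a single library. Members were split at 1000 CPM of Lyve1, a limit set after the values were seen, which gives 2 ranges of 1 measure and not 2 cell types, with 6 HIR and 11 sham cells within 2-fold of it. At or over it were 18 HIR and 12 sham cells, and under it 6 HIR and 42 sham cells. Depth differed too, with median UMIs of 8079.5 at or over it and 2011.5 under it in HIR, and 4935 and 6416.5 in sham. Cells without high doublet scores held 20 of the 790 Lyve1 UMIs of HIR members and 200 of the 344 of sham members. Lyve1, depth and doublet score thus ran together in HIR, and their parts were not tested. Among the cells at or over 1000 CPM, Nrp2 had 497 CPM in HIR and 536 CPM in sham, Fgl2 1473 and 1336 CPM in HIR and sham, Ifitm3 2240.4 and 1540.2 CPM and Sparc 787 and 994 CPM. These were picked after their values were seen. Of 34 genes outside the rule that were followed over the ranges, 20 had a smaller log2 ratio in size among these cells than over all members. Under 1000 CPM, Fgl2 had 448 CPM in HIR and 451 CPM in sham, Ifitm3 448 and 294 CPM in HIR and sham, and Sparc 1791 and 2232 CPM. Nrp2 there had 299 CPM in HIR and 956 CPM in sham, so that it was lower under the limit than over it in HIR and higher under it in sham, with 4 UMIs in those HIR cells. Lrg1 had 2240.4 CPM in HIR and 1102 CPM in sham at or over 1000 CPM of Lyve1, further apart than over all members. In the same range Txnip had 3389.6 CPM in HIR and 1072 CPM in sham, Gpx3 1391 and 283 CPM in HIR and sham, Ddit4 1086 and 429 CPM and Mgst2 232 and 29.2 CPM. Under 1000 CPM of Lyve1, Txnip had 4627 CPM in the 6 HIR cells and 1627 CPM in the 42 sham cells. Single cells of 1 library share its free RNA but not their depth. Depth ran from 547 to 57639 UMIs over HIR members and from 705 to 33733 UMIs over sham members. Across these cells, with depth not held constant, the rank correlation of Lyve1 with Fgl2 was 0.58 over 24 HIR cells and 0.50 over 54 sham cells. With Nrp2 it was 0.36 in HIR and -0.19 in sham. With Ifitm3 it was 0.60 in HIR and 0.30 in sham, and with Txnip -0.23 in HIR and -0.17 in sham.

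In the remaining lists the counts of higher genes stand against 832 of 1685 over all measured genes. Of 13 measured genes of capillary lymphatics and immune trafficking 10 were higher, with a median of 0.21, and the 2 past 2-fold were again Lyve1 and Fgl2. The sphingosine 1-phosphate exporter Spns2, which lets lymphocytes leave through lymph, had 190.5 CPM in HIR and 152 CPM in sham members. Endothelial junction genes had 9 of 11 higher, none past 2-fold and a median of 0.07. The hypoxia and glycolysis list had 3 of 9 higher and a median of -0.05, with Adm and Ddit4 over 2-fold higher and Ldhb over 2-fold lower. In the coagulation list 4 of 6 were higher, with a median of 0.06. Only 4 cell cycle, 3 metallothionein and metal, 2 clock and 1 lipid transport genes were measured.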

How the data were processed

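The libraries were 1 HIR and 1 sham lung library. The authors deposited whole-number UMI counts per gene and barcode, as matrices whose file headers name cellranger 5.0.0, while the submitters' processing notes name Cell Ranger 6.0, STAR, Seurat 4.0 and the mouse build mm10. Barcode and gene tables deposited beside them hold no other values. Kept cells held a median of 3220 UMIs in HIR and 3604 in sham.

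Members and gene lists were chosen with earlier results of these data known. UMIs were summed over members per library and divided by their total, as CPM. Ratios have exact conditional binomial 95% intervals, shares Clopper-Pearson intervals. Both were checked only on counts simulated under the model they assume, so the check does not cover differences between cells. Log2 ratios add 20 CPM. The named genes were measured, with an interval that leaves out 1, UMIs in at least 8 members of the higher library and at least 25% of the level over all kept cells, leaving aside rule genes, unnamed loci and genes of mitochondria, ribosomes, hemoglobin, sex chromosomes and immune receptors; the 12 largest per direction were taken, with list genes at 500 CPM or past 2-fold. A few other list genes were chosen after their values were seen. Pecam1 and Col1a2 were not used here, and 1 of the 10 genes furthest above blood endothelial cells is not reported here. Doublets were left in; for the alternative, the highest Scrublet scores (scanpy 1.11.5) were left out at 0.8% per 1000 barcodes. Thinning drew 1500 UMIs per cell and left out shallower cells. Analyses used scipy 1.17.1 and numpy 2.4.6. Alternatives are given in the closing section.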

Additional observations from a re-analysis of the deposited data

Results flagged for a closer look

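A total of 8 HIR barcodes met the rule for lymphatic endothelial cells in all but 1 respect, a UMI of the leukocyte gene Ptprc, against 2 in the sham library, the control. They stand out because they lie outside the members compared above and are more numerous in HIR. Of the 8, 4 had 1 UMI or 2 UMIs of Ptprc with at least 250 UMIs of Ccl21 and no more than 69 of S100a8, a neutrophil gene. Another held 1144 UMIs of S100a8, and 1 held 1415 UMIs of Lyz2, a macrophage gene, with 7 of Ptprc. Of the 8, 6 were among the high doublet scores, as was 1 of the 2 sham barcodes. Leukocytes attached to or caught with these cells, and free leukocyte RNA, cannot be told apart with these counts.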

How the results depend on the processing

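The ratio of shares, 0.488 of HIR over sham, stayed below 1 under the 15 other settings, between 0.433 and 0.681 in 14 of them and at 0.189 without the high doublet scores, which left 7 HIR and 40 sham members. The counts of genes over 2-fold higher and lower in HIR members, 41 and 29, were 51 and 44 with 5 CPM added, 14 and 7 with 100 CPM added, 95 and 67 from the mean CPM of each cell, 166 and 373 without the high doublet scores, 70 and 47 with mitochondrial, ribosomal, hemoglobin and Ccl21 UMIs out of the total, and 78 and 36 with Ptprc allowed, an alternative chosen after seeing the data. Fewer cells and another pseudocount or total act on these counts directly; the cause was not tested further. Of 75 genes followed over 11 settings (825 values), 708 stayed within their counting interval or within 0.2 of their log2 ratio, 100 moved further with the same sign or without a call, and 17 turned sign. Junb did so from the mean CPM of each cell (-0.21) and without the largest cells (-0.12). Without the high doublet scores the log2 ratios that turned were Ramp3 -0.21, Tinagl1 -0.95, Plxnd1 0.063, Fgl2 -0.18, Arl4a -0.10, Btg2 -0.20, Cd99 -0.43, Ftl1 -0.070, Ifitm2 -0.72, Jun -0.36, Junb -0.80, Jund -0.25, Klf4 -1.21, Ramp2 -0.30 and Ucp2 -0.010; those of Ramp3 and Tinagl1 rest on 0 HIR UMIs and give no direction. Of 180 list medians 167 stayed within the order-statistic interval of the median. No paired analysis was possible because each group has 1 library. The depth of 20400 to 439456 UMIs per summed group limits genes under about 100 CPM, and nothing here measures the spread between animals.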
